A study of Mus musculus with 12 samples.

Results

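Lymphatic endothelial nuclei were picked out of single-nucleus RNA libraries of mouse adipose tissue. A nucleus counted as a member when 5 lymphatic genes (Prox1, Mmrn1, Flt4, Reln and Ccl21a) together gave at least 3 unique molecular identifiers (UMIs, each standing for 1 captured transcript). At least 2 of these genes had to be seen, with at least 1 UMI of Prox1, Mmrn1 or Flt4, and their sum had to exceed that of 7 genes of other cell types (Adipoq, Plin1, Acsl1, Lama2, Dcn, Mrc1 and Epcam). The nuclei examined were those with 300 genes or more and no more than 10% of UMIs from mitochondrial genes. Of these 106898 nuclei, 109 were members, a share of 0.102% (95% exact Clopper-Pearson interval 0.0837 to 0.123%). They lay in 11 of the 12 libraries. A second class, blood endothelial nuclei, served as the comparison: 4096 nuclei with at least 3 summed UMIs of Flt1, Cyyr1, Emcn and Adgrf5, chosen in the same way.

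The libraries were made from male C57BL/6J mice on normal chow, with 1 library for each combination of depot, age and temperature. Mice kept at a room temperature of 22 °C gave mPRAT and iBAT libraries of ages 1, 2 and 6 months, lPRAT libraries of ages 2 and 6 months, and 1 iWAT library of age 6 months. Further libraries of mPRAT, iBAT and iWAT at 6 months came from mice held at 4 °C for 3 days. In common use PRAT is perirenal adipose tissue (m for medial, l for lateral), iBAT is the interscapular brown depot and iWAT the inguinal white depot. The ages of 1, 2 and 6 months appear elsewhere in the labels as 4, 8 and 16 weeks. With 1 library per group, 2 groups could not be tested against each other, and the tests that pair libraries by depot rest on 2 or 3 pairs. The number of animals behind a library is not stated in the labels, and every interval on a share or level covers counting error only. Nuclei were sorted on the DNA dye 7-AAD before capture, and the shares are shares of the nuclei recovered.

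Lymphatic endothelial cells line the vessels that drain interstitial fluid, lipid and leukocytes from tissue. Prox1 is the transcription factor that sets their identity, and Flt4 encodes the receptor for the growth factor VEGF-C. Initial lymphatic capillaries have loose button-like junctions and carry Lyve1, a hyaluronan receptor, while the collecting vessels downstream have valves. Ccl21a is the chemokine that draws dendritic cells and T cells towards lymphatics, Reln encodes the secreted glycoprotein reelin, and Mmrn1 encodes multimerin. In lymph nodes, the endothelium that lines the sinuses is known for scavenger receptors such as Stab2 and Marco.

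In the GENCODE M21 annotation of GRCm38 (the mm10 build), Prox1 lies on chromosome 1 at 190118035 to 190170714 on the minus strand. Flt4 lies on chromosome 11 at 49609263 to 49652739 on the plus strand, Mmrn1 on chromosome 6 at 60924976 to 60989378 on the plus strand, and Reln on chromosome 5 at 21884454 to 22344702 on the minus strand. Ccl21a belongs to a group of near-identical copies on chromosome 4 and on unplaced scaffolds. Of the gene's 2 rows in the matrices, the row at 42772860 to 42773993 held all 233 member UMIs and the scaffold copy held 0. Ccl21b and Ccl21c were also at 0. Because the copies are near-identical, these counts alone do not assign the UMIs to 1 copy with certainty.

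A few facts of the whole series bear on these nuclei. The shallowest library (lPRAT, 2 months) held 5461133 UMIs and the deepest (iBAT, cold) 87035783, and the median kept nucleus held 880.0 to 6300.0 UMIs. The cold mPRAT library stood apart by its mitochondrial share: 66.0% of its nuclei with at least 300 genes were over the limit, against 0.0877 to 22.1% in the others. The mPRAT library at 6 months stood apart by its immune content. Nuclei picked by B cell markers made up 31.7% of it and those picked by T or NK cell markers 13.8%, while in iWAT at 6 months these shares were 4.84 and 6.33%, and in each of the other libraries under 2%. Between 1 and 75 cell barcodes were shared by a pair of libraries, and no barcode was a member in more than 1 library.

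A member held a median of 1758 UMIs (511 to 14050) from a median of 1085 genes. The summed score of the 5 genes had a median of 10 UMIs (3 to 137). The rule used these 5 genes, so their levels are a description of what was chosen. Over all members there were 557 UMIs of Reln, 297 of Mmrn1, 233 of Ccl21a, 188 of Prox1 and 167 of Flt4. Reln was seen in 81 of 109 members and Prox1 in 73. In 41 members 2 of the 5 genes were seen, in 20 members 3, in 29 members 4 and in 19 members all 5. No UMI of the 7 genes of other cell types was found in 45 members. Just inside the rule were 8 members with a score of 3 and 16 with a score of 4. Just outside it were 12 nuclei that met the other conditions with a score of 2, and 14 whose score did not exceed the genes of other types. A further 124 nuclei scored 3 or more without meeting the condition on genes seen, 97 of them in mPRAT at 6 months.

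Genes outside the rule were then used to check the label. Each nucleus was given to 1 of 13 cell classes by the likelihood of its UMIs under class profiles built from the other libraries, with all genes used to choose a class left out. The lymphatic profile was summed from the members of the other libraries, so a placement shows likeness to other nuclei picked by the rule. Members of mPRAT at 6 months held 184171 UMIs, and those of any other library at most 25353. Of the 109 members, 95 (87.2%) were placed with the lymphatic profile and 0 with the blood endothelial one. Among blood endothelial nuclei, 94.4% were placed with their own profile and 6 of 4096 with the lymphatic one. By library, the lymphatic placements were 28 of 39 (mPRAT, 6 months), 9 of 10 (mPRAT, cold), 8 of 10 (iBAT, 1 month), 17 of 17 (iBAT, 6 months) and 16 of 16 (iBAT, cold). The 14 other members were placed with stromal progenitors (4), mural cells (3), adrenal cortex (3), adipocytes (2) and T or NK cells (2). With class profiles thinned to 1 size, 92.7% of members were placed as lymphatic, the 4 stromal ones among them. The 3 placed with adrenal cortex, all in mPRAT at 6 months, held 18 UMIs of Cyp11a1 and 15 of Hsd3b1, enzymes of steroid synthesis. Doublet scores marked 17 of the 109 members, 8 of them in mPRAT at 6 months and 5 in iBAT at 1 month. With marked nuclei left out, 10357 of 11412 kept nuclei and 31 of 39 members remained in mPRAT at 6 months. In iBAT at 1 month 10358 of 11398 kept nuclei and 5 of 10 members remained. In both libraries the marked share was thus higher among members than among all kept nuclei.

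Markers of other cell types were present in members. Over the 5 libraries with at least 10 members, summed adipocyte markers ran from 175 to 673 CPM (UMIs per 1000000 UMIs) in members, against 619 to 1244 in blood endothelial nuclei and 4722 to 6176 in all kept nuclei. These lists hold genes that the rule kept low in both classes: 3 of 5 adipocyte, 2 of 5 stromal and 1 of 5 macrophage markers. Stromal progenitor markers ran from 0 to 552 in members, against 99.8 to 321 in blood endothelial and 113 to 342 in all kept nuclei. Macrophage markers ran from 92.3 to 658, against 7.22 to 106 and 46.9 to 254, and mural markers from 0 to 943, against 149 to 1016 and 49.7 to 275. Mesothelial markers, on 8 member UMIs, ran from 0 to 349, against 0 to 225 and 0.0462 to 311. For stromal, macrophage, mural and mesothelial markers the highest member value was thus above the highest of all kept nuclei. With only the genes the rule did not use, adipocyte markers ran from 0 to 309 in members against 273 to 452 in blood endothelial nuclei. Stromal ones ran from 0 to 552 against 76.1 to 180. Macrophage ones, on only 10 member UMIs over the 5 libraries, ran from 0 to 405 against 4.82 to 62.4. B cell markers were at 0 in members of 3 of these libraries and reached 266 CPM in mPRAT at 6 months, where T or NK cell markers reached 532. None of the 5 genes of the adipocyte, stromal, mural, B cell or T cell lists was at 0 over all members. Of the kidney and epithelial list, 4 of 5 genes were at 0. The part of these transcripts in the results below was not tested.

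At full depth under the rule, mPRAT at 6 months had the highest share of lymphatic endothelial nuclei. There 39 of 11412 nuclei were members, 0.342% (0.243 to 0.467%), and in the cold mPRAT library 10 of 3781, 0.264% (0.127 to 0.486%). At 1 month mPRAT held 3 of 5391 (0.0556%, 0.0115 to 0.163%), and at 2 months 1 of 6156 (0.0162%, 0.000411 to 0.0905%). iBAT held 10 of 11398 at 1 month (0.0877%), 2 of 12497 at 2 months (0.0160%), 17 of 21115 at 6 months (0.0805%) and 16 of 12674 in the cold (0.126%). In iWAT there were 5 of 8280 at room temperature (0.0604%) and 2 of 4949 in the cold (0.0404%). lPRAT held 4 of 3279 at 2 months (0.122%) and 0 of 5966 at 6 months. By a limit of 3 counts the latter allows a share of up to 0.0503%, and its exact interval reaches 0.0618%. With only members placed with the lymphatic profile, mPRAT at 6 months held 28 of 11412 (0.245%) and cold mPRAT 9 of 3781 (0.238%). The difference, cold minus room temperature, was then -0.00732 points (-0.176 to 0.221). Some other ways of counting put another library first. Cold mPRAT led after thinning to 1000 UMIs (0.179% against 0.124% in mPRAT at 6 months) and without members holding Stab2 or Marco (0.264% against 0.158%). Counting every kept nucleus placed with the lymphatic profile, member or not, put iWAT at 6 months first. It held 76 of 8280 (0.918%) against 48 of 11412 in mPRAT (0.421%). Of the 76, 71 were not members, and 28 of those 71 held any UMI of a rule gene (48 UMIs in all). The profile check gave each nucleus to 1 of its classes, whether or not its own type was among them. With class profiles of equal size the iWAT and mPRAT counts were 111 (1.34%) and 124 (1.09%). Over all libraries 445 nuclei were then placed as lymphatic in place of 214. Over endothelial nuclei lPRAT at 2 months led, as given below.

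**Figure D1:**
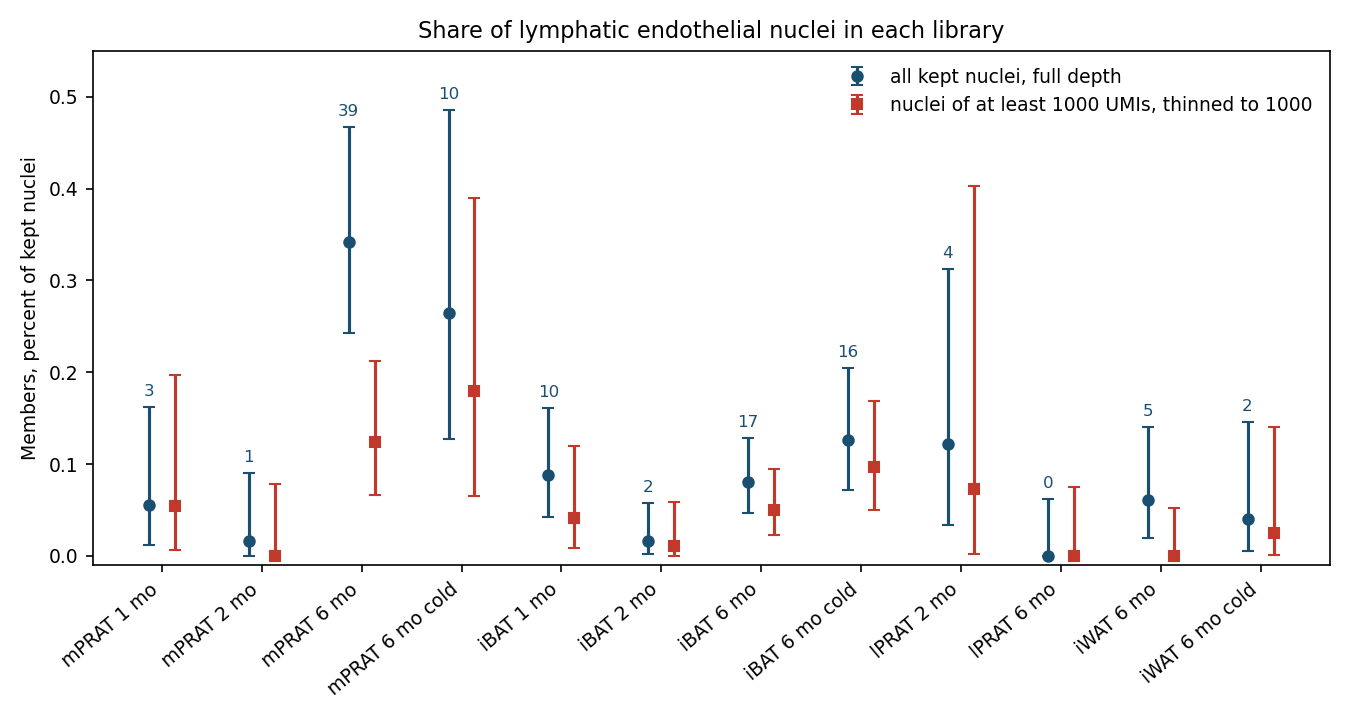
Percent of kept nuclei that were lymphatic endothelial (y axis) in each of the 12 libraries (x axis); circles are all kept nuclei at full depth with the number of members above, squares are nuclei of at least 1000 UMIs thinned to 1000, and bars are 95% exact binomial intervals. The circle of mPRAT at 6 months stands at 0.342% and its square at 0.124%.

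The age difference in mPRAT, 6 minus 1 month, was 0.286 percentage points (95% interval 0.141 to 0.419). The depth differed with it: the 39 members of mPRAT at 6 months had a median of 3208 UMIs and the 3 members at 1 month 1099. With nuclei thinned to 1000 UMIs and shallower ones left out, 13 of 10481 nuclei were members at 6 months and 2 of 3668 at 1 month. The difference was then 0.0695 points (-0.0841 to 0.170), an interval that includes 0. Counted by the lymphatic profile with equal-size class profiles it was 0.0293 points (-0.331 to 0.359). In iBAT the same ages differed by -0.00722 points (-0.0881 to 0.0593), so no change was detectable at this depth. With doublet scores left out, iBAT at 1 month held 5 members in 10358 nuclei (0.0483%). The iBAT difference was then 0.0375 points (-0.0371 to 0.102). In lPRAT the share at 6 months was 0.122 points below that at 2 months (difference -0.122, -0.312 to -0.0138), a comparison of 0 against 4 members; after thinning the interval included 0 (-0.402 to 0.0308).

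Between depots at 6 months, mPRAT exceeded iBAT by 0.261 points (0.151 to 0.391) and iWAT by 0.281 points (0.154 to 0.413). The lPRAT library lay 0.342 points below mPRAT (difference -0.342, -0.467 to -0.225). Thinned to 1000 UMIs, these differences were 0.0741 (0.000795 to 0.166), 0.124 (0.0460 to 0.212) and -0.124 (-0.212 to -0.0290) points. The order of mPRAT and iWAT turned when nuclei were counted by the lymphatic profile alone, with a difference of -0.497 points (-0.752 to -0.260). With equal-size profiles it was -0.254, and the interval included 0 (-0.581 to 0.0607). Without the members that held Stab2 or Marco, described below, the difference of mPRAT from iBAT was 0.0772 points, with an interval that included 0 (-0.00318 to 0.175). No difference with cold exposure was detectable at this depth under the rule. Paired by depot, the mean difference over 3 depots was -0.0172 points (SD 0.0615, lower in 2 of 3), with a two-sided exact permutation p of 0.75, where 3 pairs cannot go below 0.25. The share in the cold minus that at room temperature was -0.0773 points in mPRAT (-0.263 to 0.165), 0.0457 in iBAT (-0.0268 to 0.131) and -0.0200 in iWAT (-0.108 to 0.0931). After thinning the mPRAT and iWAT differences were above 0 (0.0551 and 0.0253 points), again with intervals that included 0. Counted by the profile alone, the iWAT share was 0.323% in the cold and 0.918% at room temperature. The difference was -0.595 points, with an interval that left out 0 (-0.863 to -0.315). Of the iWAT nuclei so placed, 14 in the cold and 71 at room temperature were not members. With equal-size profiles the iWAT interval included 0 (-0.290, -0.669 to 0.112), while those of mPRAT (-0.690, -0.961 to -0.375) and iBAT (0.0836, 0.00147 to 0.180) did not. With no mitochondrial limit, the cold mPRAT library held 10 of 11134 nuclei, 0.0898%, and its difference from room temperature was -0.262 points, with an interval that left out 0 (-0.396 to -0.138). In that library 66.0% of nuclei were over the limit, against 2.03% at room temperature.

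Measured against all endothelial nuclei instead, members made up 11.1% (8.04 to 14.9%) of members plus blood endothelial nuclei in mPRAT at 6 months and 8.06% (3.94 to 14.3%) in cold mPRAT. In iBAT this share was 1.07% (0.512 to 1.95%) at 1 month, 0.336% (0.0407 to 1.21%) at 2 months, 4.19% (2.46 to 6.62%) at 6 months and 3.29% (1.89 to 5.28%) in the cold. On this scale iBAT at 6 months exceeded iBAT at 1 month by 3.12 points (1.18 to 5.62), and the number of blood endothelial nuclei was 928 at 1 month and 389 at 6 months. Members were 1.00% in mPRAT at 1 month, 2.21% in iWAT at 6 months and 22.2% in lPRAT at 2 months, where only 14 blood endothelial nuclei were found.

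The levels of the rule genes in the members of each library are given as a description, since these genes chose the members. Levels in CPM carry 95% exact Poisson intervals. In the members of mPRAT at 6 months Reln stood at 782 CPM (659 to 921), and in those of cold mPRAT at 2911 (2160 to 3837). It reached 5739 (4498 to 7216) in 1-month iBAT, 6179 (5131 to 7377) in 6-month iBAT and 4063 (3316 to 4927) in cold iBAT. Mmrn1 stood at 586 (481 to 708) in mPRAT at 6 months and between 1863 and 2673 in the other 4 libraries. A nucleus passed the rule at 3 UMIs whatever its depth, and members of mPRAT at 6 months had a median of 3208 UMIs against 1077 to 1594.5 in the other 4 libraries. In that library 6 of 39 members had a score of 3 and 11 a score of 4. The part of depth in these levels was not tested. Prox1 ran from 538 to 943 CPM. Ccl21a was at 2482 (1836 to 3281) in iBAT at 6 months and 1696 (1227 to 2285) in cold iBAT, against 236 (48.6 to 689) in iBAT at 1 month, where it rests on 3 UMIs. In the 5 members of iWAT at 6 months no UMI of Reln and 1 of Mmrn1 was found.

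**Figure D2:**
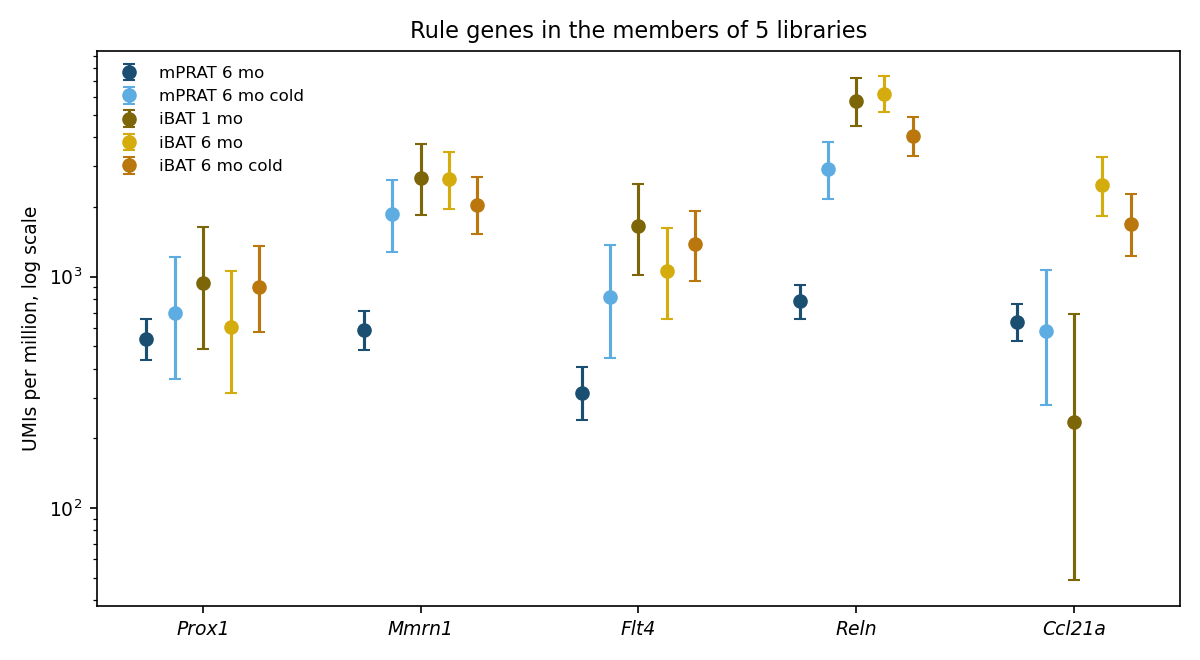
Levels of the 5 rule genes (x axis) in CPM on a log axis (y axis), summed over the members of each of the 5 libraries with at least 10 members; bars are 95% exact Poisson intervals. Reln and Mmrn1 stand at 782 and 586 in mPRAT at 6 months, where members were deepest, and Prox1 runs from 538 to 943.

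Genes outside the rule also divided the members. Stab2 and Marco, both scavenger receptors, were seen in 21 and 14 members respectively, and 24 members held at least 1 of them. Piezo2, a mechanosensitive ion channel, was seen in 53 members. No member held both Piezo2 and either of the scavenger receptors. These genes were chosen for the division after their values were seen, so it is a description with no test. The 24 members with Stab2 or Marco came from mPRAT at 6 months (21 of its 39), iWAT at 6 months (2 of 5) and mPRAT at 1 month (1 of 3). In iBAT 0 of 45 members held either gene, and in cold mPRAT 0 of 10. By a limit of 3 counts, the 0 of 45 allows up to 6.67% of members with a UMI of either gene (exact interval up to 7.87%). This holds at this depth (medians of 907.5 to 1443.5 UMIs) and does not limit the members that express it. Piezo2 was seen in 31 of 45 members in iBAT (68.9%, 53.4 to 81.8%), in 7 of 10 in cold mPRAT, in 3 of 4 in lPRAT at 2 months and in 8 of 39 in mPRAT at 6 months (20.5%, 9.30 to 36.5%).

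**Figure D3:**
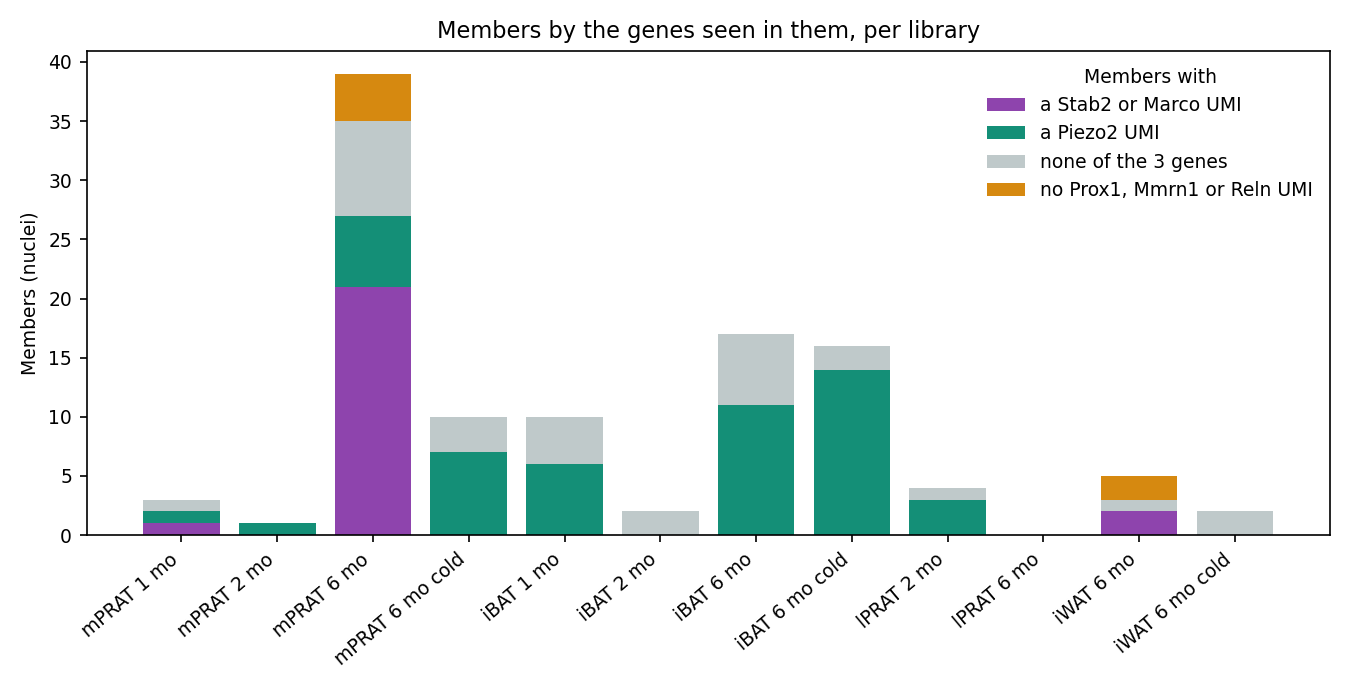
Number of members (y axis) in each library (x axis), stacked by the genes seen in them: Stab2 or Marco, Piezo2, none of these 3, or no UMI of Prox1, Mmrn1 or Reln (whichever of the 3 genes they held). The Stab2 or Marco class holds 21 members in mPRAT at 6 months and 0 in every iBAT library.

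Depth differed between the sets. Over all libraries, members with Stab2 or Marco were deeper (median 2927 UMIs, 1099 to 6550) than those with Piezo2 (median 1534, 511 to 14050). Within mPRAT at 6 months the order was the other way. There the 8 members with Piezo2 had a median of 5893 UMIs (1300 to 14050). The 21 with Stab2 or Marco had a median of 2980 (1816 to 6550). Only 4 of those 8 members with Piezo2 were placed with the lymphatic profile, against 19 of the 21. Among the 8, 2 were placed with adipocytes (7165 and 14050 UMIs), and doublet scores marked both. The part of such nuclei in this order was not tested. After 83 members of at least 1000 UMIs were thinned to 1000, Stab2 or Marco was still seen in 14 of 38 members of mPRAT at 6 months and in 0 of 27 members of iBAT. Piezo2 was seen in 4 of the former and 22 of the latter, and again no member held both. Nuclei of other types, in which free RNA can leave UMIs, gave these shares. In nuclei picked by adipocyte markers in mPRAT at 6 months, with a median of 6334 UMIs, Stab2 or Marco was seen in 1.13% (0.824 to 1.51%) and Piezo2 in 2.23% (1.80 to 2.74%). In the blood endothelial nuclei of that library, with a median of 2139 UMIs, the shares were 0.643% (0.0780 to 2.30%) and 5.79% (3.47 to 8.99%). Members with Stab2 or Marco were found mainly in the library with 31.7% B cell nuclei, and the part of that tissue content in the division was not tested.

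Levels of further genes in the 53 members with Piezo2 and the 24 with Stab2 or Marco are given over all libraries. Those of Reln, Mmrn1 and Ccl21a describe genes that chose the members. Reln stood at 3747 CPM (3404 to 4115) in members with Piezo2, against 337 (222 to 491) in members with Stab2 or Marco. Mmrn1 stood at 1818 (1581 to 2080) against 312 (202 to 461), and Ccl21a at 1578 (1358 to 1823) against 12.5 (0.316 to 69.6), the latter from 1 UMI. Outside the rule, Cp, which encodes the copper-carrying ferroxidase ceruloplasmin, was at 797 (644 to 977) against 175 (95.6 to 294). Lyve1, of the initial capillary genes, was at 420 (311 to 555) against 175 (95.6 to 294). The podoplanin gene Pdpn was at 111 (59.3 to 191) from 13 UMIs against 12.5 (0.316 to 69.6) from 1 UMI.

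Other genes were on the side of Stab2 and Marco. Jam3, a junctional adhesion molecule, was at 1612 CPM (1346 to 1915) in members with Stab2 or Marco and seen in 22 of 24, against 17.1 (2.08 to 61.9) and 2 of 53 in members with Piezo2. The axon guidance ligands Sema3a and Sema3d were at 1937 against 557 and at 1075 against 369. Foxp2, a transcription factor of collecting vessels and valves, was at 1562 (1300.2 to 1861) against 343 (245 to 467), and Itga9, a valve integrin, at 1137 (916 to 1396) against 626 (491 to 787). Tbx1, a transcription factor of lymphatic development, was seen in 14 of 24 against 7 of 53. Over all libraries, Prox1 (825 against 557) and Maf (850 against 712) had overlapping intervals. Within mPRAT at 6 months alone, where 8 members held Piezo2 and 21 Stab2 or Marco, Reln was at 2526 CPM against 273, Mmrn1 at 1592 against 327 and Jam3 at 21.2 against 1691. Sema3a was there at 212 against 2018 and Foxp2 at 382 against 1568, in the same direction as over all libraries. Other genes differed from the values over all libraries. Prox1, a rule gene, was at 255 (132 to 445) against 723 (541 to 945), and Maf at 361 (210 to 578) against 859 (660 to 1099), without overlap. Intervals overlapped for Cp, at 361 (210 to 578) against 177 (94.4 to 303). They also did for Lyve1, at 276 (147 to 472) against 177 (94.4 to 303), and for Pdpn, on 5 UMIs against 1. By genes outside the rule, 22 of 24 members with Stab2 or Marco and 49 of 53 with Piezo2 were placed with the lymphatic profile, with 4 of the 8 that held Piezo2 in mPRAT at 6 months. With equal-size profiles the last was 7 of 8. By the first profiles, the other 4 of these 8 were placed with adipocytes (2) and stromal progenitors (2). The 2 placed with adipocytes held 7165 and 14050 of the 47114 UMIs of the 8, and doublet scores marked both. None of these 4 held a UMI of Lyve1. Their part in the levels within this library was not tested.

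**Figure D4:**
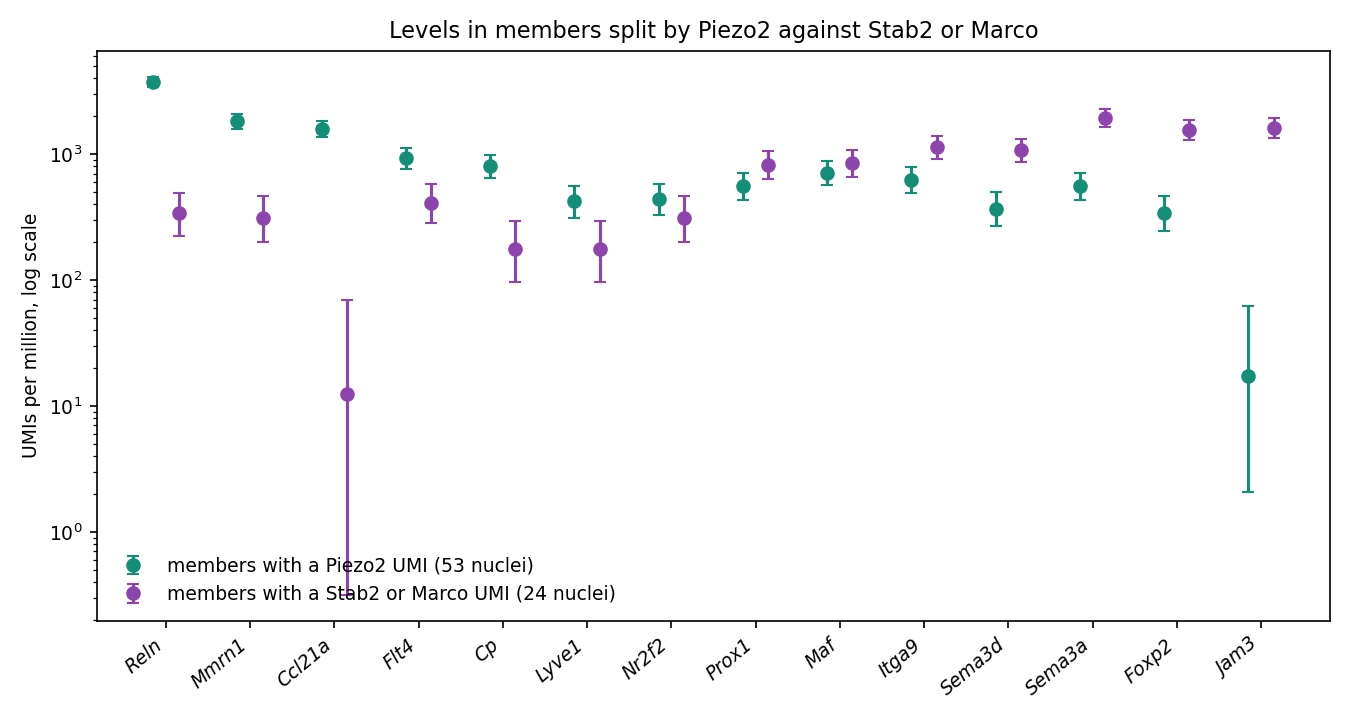
Levels of 14 genes (x axis) in CPM on a log axis (y axis) in the 53 members with Piezo2 and the 24 with Stab2 or Marco; bars are 95% exact Poisson intervals. Over all libraries, as drawn, Cp and Lyve1 are higher in the former, Foxp2 and Jam3 in the latter, and Prox1 and Maf intervals overlap. Within mPRAT at 6 months alone (not drawn), Cp and Lyve1 intervals overlap and those of Prox1 and Maf do not. There only 4 of the 8 members with Piezo2 were placed with the lymphatic profile. Reln, Mmrn1, Ccl21a, Flt4 and Prox1 are rule genes.

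In 6 members no Prox1, Mmrn1 or Reln was found, and they met the rule through Flt4 and Ccl21a. Of these, 4 are among the 53 members with Piezo2 and 0 among those with Stab2 or Marco. They were deep (median 6366 UMIs) and came from mPRAT (4) and iWAT (2) at 6 months. Csmd1, a complement-regulating membrane protein, made up 25672 CPM in them (24188 to 27224), against 372 in the 49 other members with Piezo2 and 1475 in members with Stab2 or Marco. Pcdh15, a cadherin, was at 8074, against 0 in the 49 and 2874 in members with Stab2 or Marco. The chemokine gene Cxcl13 was seen in 3 of the 6 and the addressin gene Madcam1 in 2, and neither in any other member. All 4 from mPRAT were placed with stromal progenitors, and all 4 with the lymphatic profile when class profiles were of equal size. The 2 from iWAT were placed with the lymphatic profile both ways, and for them that profile included the 4 from mPRAT.

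Members and blood endothelial nuclei were compared within each library, on UMI counts summed per library and class. The fit used the 5 libraries with at least 10 members (92 members), edgeR's quasi-likelihood test with the library as a block, and Benjamini-Hochberg adjustment at 0.05. The 16 genes that chose either class were left out of all counts. A gene could pass the count filter through 1 class alone, so counts and medians of the lists below describe the genes that passed and are no support for a list. Of 3912 genes tested, 193 (4.93%) were higher in members and 340 (8.69%) lower, 13.6% in all, with a median log2 fold change of -0.21 over all tested genes.

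Of 17 lymphatic genes listed outside the rule, 12 were tested. Of these, 8 were higher in members and 1 lower, with a median log2 fold change of 3.18. Blood endothelial nuclei held only 9 UMIs of Lyve1, 6 of Fgl2 and 13 of Pard6g, which passed the filter through members. Lyve1 was higher in members in every library. There it stood at 141 CPM in 6-month mPRAT, 175 in cold mPRAT, 708 in 1-month iBAT, 760 in 6-month iBAT and 631 in cold iBAT. In blood endothelial nuclei of the same libraries it stood at 6.88, 0, 0, 1.79 and 1.61, so the classes did not overlap. Its log2 fold change was 7.20 ± 0.68 (SE, edgeR adjusted p = 8.31e-08). Nr2f2, the transcription factor that works with Prox1, rose by 2.45 ± 0.40 on the log2 scale (adjusted p = 9.01e-05). Maf, Fgl2, Cp and Klhl4 were higher by 5.80, 6.88, 3.92 and 2.18. Klhl4 was at 0 in members of iBAT at 1 month, the 1 library that went against its call.

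Sox18, which acts upstream of Prox1 in the embryo, was lower by log2 -2.85 ± 0.81 (adjusted p = 0.018), from 3 UMIs in members, and lost its call without cold iBAT (0.070) and without the block (0.057). Nrp2, a co-receptor for VEGF-C, was at log2 0.93 ± 0.34 and did not pass (adjusted p = 0.079). It passed without mPRAT at 6 months (0.0071), without iBAT at 1 month (0.035) and with profile-placed members only (0.0089). Tspan18 and Rhoj did not pass, although Rhoj did without mPRAT at 6 months (0.0052). Pdpn, Tbx1, Stab2, Thy1 and Kbtbd11 did not pass the count filter. Stab2 had 211 member UMIs, 179 of them in mPRAT at 6 months, and 0 in the other 4 libraries of the fit. Tbx1 had 39, of which 29 were in mPRAT at 6 months.

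**Figure D5:**
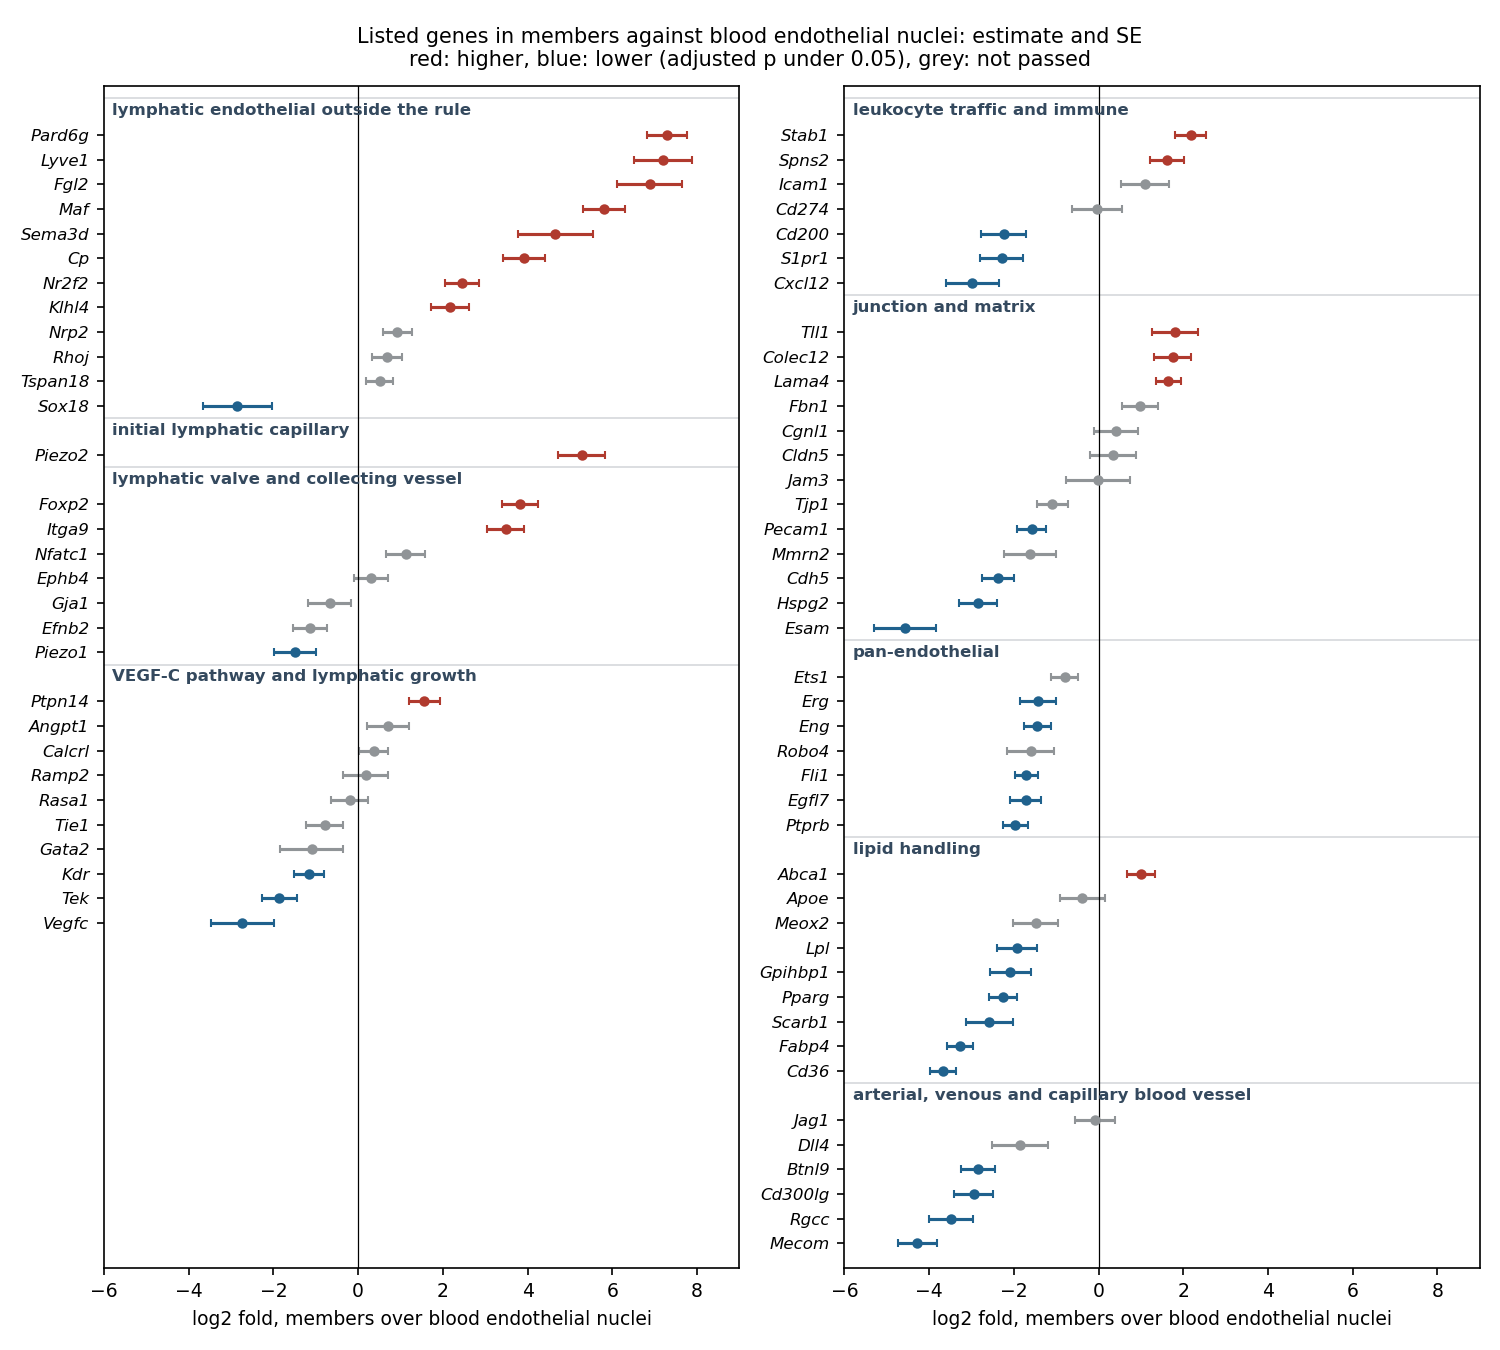
Log2 fold change of members over blood endothelial nuclei (x axis, bars are SE) for tested genes of 9 lists with at least 1 UMI in members, each gene shown once (y axis); red genes were higher and blue genes lower at an adjusted p under 0.05 in edgeR, and grey genes did not pass. Lymphatic genes lie mostly to the right, with Pard6g at 7.29, and lipid handling genes mostly to the left, with Cd36 at -3.66.

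By the rule of the 12 largest changes among 70 genes higher in all 5 libraries with at least 100 member UMIs, Pard6g came first. It encodes a polarity protein and was at log2 7.29 ± 0.48 (adjusted p = 2.53e-10). Next were Sema3a (7.17), Pld5 (6.43), Gpm6a (5.82), Maf (5.80) and Piezo2 (5.28). Npas3 (4.89), the guidance ligand Ntn1 (4.77), the matrix protein gene Abi3bp (4.67), Sema3d (4.65), Srgap3 (4.55) and the phospholipase gene Plce1 (4.27) followed. All 12 stayed called in each alternative that could fit them. Over the 5 libraries they stood at 394 to 1011 CPM in members and at 3.16 to 47.2 in blood endothelial nuclei. They could thus pass the count filter through members, and were then picked by member UMIs and fold. Their calls describe the genes so chosen and are no separate support. Pard6g stood at 223 CPM in members of 6-month mPRAT, 699 in cold mPRAT, 629 in 1-month iBAT, 1215 in 6-month iBAT and 907 in cold iBAT, while in blood endothelial nuclei it was under 5 CPM in each library.

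Piezo2, on the list of initial capillary genes with Lyve1, was higher by log2 5.28 ± 0.56 (adjusted p = 4.47e-07). In members it stood at 206 CPM in 6-month mPRAT, 1630.0 in cold mPRAT, 1494 in 1-month iBAT, 1773 in 6-month iBAT and 1657 in cold iBAT. Only the first library stood apart. Blood endothelial nuclei ran from 5.36 to 67.2.

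Of 14 genes of valves and collecting vessels listed, 7 were tested, 2 were higher and 1 lower. Foxp2 was at log2 3.82 ± 0.42 (adjusted p = 7.57e-07) and Itga9 at 3.48 ± 0.44 (adjusted p = 4.29e-06). The level of Foxp2 in members was 1069.7 CPM in mPRAT at 6 months and 78.6 to 658 in the other 4 libraries. Piezo1, the relative of Piezo2, was lower by log2 -1.50 ± 0.50 (adjusted p = 0.046), but kept its call in only 5 of 12 alternatives and lost it without mPRAT at 6 months (0.24), cold mPRAT (0.087), iBAT at 1 month (0.13) or cold iBAT (0.079), without the block (0.057), with profile-placed members only (0.071) and by DESeq2 (0.056). Nfatc1, Gja1, Efnb2 and Ephb4 did not pass, although Nfatc1 was higher without mPRAT at 6 months (0.033) and with profile-placed members only (0.031), and Efnb2 was lower without iBAT at 6 months (0.046) and under 4 other settings. Foxc2, the valve transcription factor, was not tested.

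In the VEGF-C pathway, 14 of 22 listed genes were tested, 3 were higher and 4 lower, with a median of -0.01. Besides Itga9 and Nr2f2, the phosphatase gene Ptpn14, known to restrain lymphatic growth, was higher by 1.56 ± 0.37 (adjusted p = 0.0042). Its call was lost with no filter on low counts (0.12). The ligand gene Vegfc was lower by log2 -2.73 ± 0.75 (adjusted p = 0.014) on 6 member UMIs, and was not called without cold iBAT (0.11) or by DESeq2 (0.064). Kdr, the main VEGF receptor of blood vessels, was lower by -1.16 ± 0.35 (adjusted p = 0.026) and Tek, the angiopoietin receptor, by -1.86 ± 0.42 (adjusted p = 0.0028). Kdr kept its call in 7 of 12 alternatives and lost it without mPRAT at 6 months (0.088), iBAT at 1 month (0.090) or iBAT at 6 months (0.090), without the block (0.077) and with profile-placed members only (0.12). Angpt1, Tie1, Calcrl, Ramp2, Rasa1 and Gata2 did not pass, although Gata2 was lower without cold mPRAT (0.029).

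Of 20 leukocyte traffic genes, 7 were tested, 2 were higher and 3 lower. Stab1, a scavenger receptor, was higher by 2.17 ± 0.36 (adjusted p = 0.00013). Spns2, the exporter of sphingosine 1-phosphate into lymph, was higher by 1.62 ± 0.41 (adjusted p = 0.0078), except without cold mPRAT (0.083) or without a count filter (0.20). The receptor for the same lipid, S1pr1, was lower by log2 -2.28 ± 0.51 (adjusted p = 0.0026), as were the chemokine gene Cxcl12 (-2.99 ± 0.63, adjusted p = 0.0015) and Cd200 (-2.24 ± 0.53, adjusted p = 0.0041).

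Junction and matrix genes went both ways, with 3 of 14 tested genes higher and 5 lower. Lama4, a vessel laminin, rose by 1.65 ± 0.30 (adjusted p = 0.00035). The scavenger lectin gene Colec12 was higher by 1.75 ± 0.43 (adjusted p = 0.0065) and the protease gene Tll1 by 1.81 ± 0.54 (adjusted p = 0.025). Colec12 lost its call without cold iBAT (0.058) and with no count filter (0.16). Tll1 lost it without iBAT at 1 month (0.13), at 6 months (0.17) or in the cold (0.21), without the block (0.12) and with no count filter (0.079). VE-cadherin (Cdh5, -2.38 ± 0.38), Pecam1 (-1.58 ± 0.34), Esam (-4.57 ± 0.73) and perlecan (Hspg2, -2.85 ± 0.44) were lower, with adjusted p of 7.23e-05, 0.0021, 7.86e-05 and 5.83e-05. Jam3 did not pass (log2 -0.02 ± 0.75). Its estimate rested on 1 library, since without mPRAT at 6 months it was -3.23 and lower in members (adjusted p = 0.025), and the sign of the remaining alternatives varied.

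Of the 15 genes shared by endothelial cells in general, all were tested, 10 were lower in members and 0 higher, with a median of -1.58. At an unadjusted p under 0.05 edgeR also had 0 of them higher, and DESeq2 called 0 higher. Calcrl (0.37) and Cldn5 (0.35) had positive estimates that did not pass, and in some alternatives their sign turned. Besides those named above, Ptprb (-1.97 ± 0.29), Egfl7 (-1.72 ± 0.37), Fli1 (-1.71 ± 0.27), Eng (-1.44 ± 0.33) and Erg (-1.44 ± 0.42) were lower. Erg lost its call without iBAT at 1 month (0.10) or at 6 months (0.091) and with profile-placed members only (0.14). Tie1, Ets1 and Robo4 did not pass, although Robo4 was called lower in 4 of 12 alternatives (smallest adjusted p 0.020) and Ets1 in 1 (0.026).

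Lipid handling genes were mostly lower in members. Of 13 listed genes 10 were tested, 7 were lower and 1 higher, with a median of -2.17. Cd36, the fatty acid translocase of adipose capillaries, stood at 201 CPM in members of 6-month mPRAT, 116 in cold mPRAT, 393 in 1-month iBAT, 203 in 6-month iBAT and 316 in cold iBAT, against 2551, 2082, 2067, 2953 and 3271 in blood endothelial nuclei. Its log2 fold change was -3.66 ± 0.31 (adjusted p = 1.90e-08). Fabp4, a fatty acid carrier, was lower by -3.27 ± 0.31 (adjusted p = 9.30e-08), and its regulator Pparg by -2.26 ± 0.33 (adjusted p = 2.65e-05). Gpihbp1, which moves lipoprotein lipase to the capillary wall, was lower by -2.08 ± 0.48 (adjusted p = 0.0037), except without mPRAT at 6 months (0.052). Lpl and Scarb1 were lower by -1.92 and -2.58. Adipocytes also carry Cd36, Fabp4, Pparg and Lpl. The 2 adipocyte markers that the rule did not use, Lipe and Plin4, summed to 0 to 309 CPM in members and 273 to 452 in blood endothelial nuclei. Lipe, an adipocyte lipase gene, was itself lower by -1.51 ± 0.48 (adjusted p = 0.037), with its call lost without iBAT at 1 month (0.14), at 6 months (0.11) or in the cold (0.15), and Plin4 did not pass. The part of adipocyte transcripts in these falls was not tested. The cholesterol exporter Abca1 was higher by 1.00 ± 0.32 (adjusted p = 0.041), with its call lost in 6 of 12 alternatives, among them those without cold mPRAT (0.15), iBAT at 1 month (0.073), iBAT at 6 months (0.20) or cold iBAT (0.16).

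By the rule of the 12 largest fitted falls among 309 genes lower in all 5 libraries, each named gene had 0 UMIs in members. A fitted fold against 0 depends on the prior count, so the folds here are lower bounds from 3 counts over the summed members. UMIs were pooled over the 5 libraries, so the bounds were not taken within libraries as the fit was. Members of mPRAT at 6 months gave 184171 UMIs, those of each other library of the fit 12720 to 25353. For blood endothelial nuclei these were 872295 and 208448 to 1246075. The bounds do not rank these genes against genes with member UMIs, such as Esam or Mecom. Ccdc85a, with 7097 UMIs in blood endothelial nuclei, was at least 149-fold lower. The ubiquitin ligase gene Lnx1 was at least 66.9-fold lower, the junction gene Jam2 at least 31.7-fold, the channel gene Trpm3 at least 24.9-fold, Vwa3a at least 21.2-fold and Ly6c1 at least 17.3-fold. Car4, a carbonic anhydrase of capillaries, followed at 15.6-fold or more. Ctnnbip1 (11.96), Tcf15 (9.67), the arterial genes Sema3g (8.62) and Sox17 (7.59) and Gm29007 (6.16) completed the 12. Tcf15 is a transcription factor of fatty acid uptake in adipose capillaries. Of the 7 tested genes that mark kinds of blood vessel, 5 were lower and 0 higher, also at an unadjusted edgeR p under 0.05 and by DESeq2: besides Sox17, these were Mecom (-4.28), Rgcc (-3.49), Cd300lg (-2.95) and Btnl9 (-2.84). Dll4 and Jag1 did not pass, although Dll4 was lower without the block (0.026).

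Within members, cold and room temperature were set side by side as levels, since only 1 library held 20 members, the minimum set for a fold. In iBAT at 6 months, 17 members at room temperature and 16 in the cold gave overlapping intervals for Lyve1 and Piezo2. Of the rule genes, Reln was at 6179 against 4063 in the cold and Ccl21a at 2482 against 1696, which describe the nuclei chosen in 1 library each. In mPRAT at 6 months, the level of Piezo2 was 206 at room temperature against 1630.0 in the cold, and Stab2 was at 972 against 0. That 0 rests on only 17178 UMIs over the cold members, against 184171 at room temperature, and does not show that the gene was absent. Stab2 or Marco was seen in 21 of 39 members at room temperature and in 0 of 10 in the cold.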

How the data were processed

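The deposited matrices hold raw UMI counts per gene and barcode. Per the submitters' processing notes they were made by the authors with Cell Ranger 7.0.0 on mm10, and the annotation and any later filter are not given in the sources used here. Nothing was normalized by the authors. Members, the comparison class, gene lists and tests were chosen with earlier results of these data known. Nuclei were kept as the member rule says. Doublets stayed in for the main values. An alternative left out the highest scrublet scores (scanpy 1.11.5) at 0.8% per 1000 nuclei, because the method's own threshold marked too few.

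UMI counts were summed over the nuclei of a class and given per 1000000 UMIs of that class (CPM), which leaves the rest of the transcriptome in the denominator. Shares have exact Clopper-Pearson intervals, levels exact Poisson intervals, and differences of shares Newcombe intervals built from the exact ones, all at 95% and for counting error only. A count of 0 is given the limit of 3 counts. With 1 library per group, single groups were not tested against each other. Shares with cold and with age were tested over libraries paired by depot, by an exact permutation of signs, an addition made after values were seen. The fit across genes used edgeR 4.0.16 in R 4.3.3 (TMM, filterByExpr), with libraries as the replicates. The library block takes out what both classes of a library share. The p-values therefore measure how the difference between the classes varies over these 5 libraries, which differ in depot, age and temperature. Whether libraries stand for separate animals is not stated. DESeq2 1.42.0 was an alternative. On simulated counts for this comparison, with 200 of 3924 genes changed 4-fold, 64.5% of changed genes were recovered and 1.53% of calls were false. As many rises as falls were simulated, and 87 rises but only 42 falls were recovered. The simulated counts had 1 dispersion for all genes and no difference between libraries other than size. These rates therefore need not hold for the real counts.

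Named genes were, outside the rule genes, the 12 largest rises with at least 100 member UMIs and the 12 largest falls with at least 100 blood endothelial UMIs, called and with 1 sign in all 5 libraries, plus listed genes with at least 20 member UMIs. Listed genes below 20 member UMIs (among them Sox18, Vegfc, Esam, S1pr1, Cxcl12, Cd200, Hspg2, Gpihbp1, Piezo1, Klf2, Rgcc and Rgs5) fall outside that rule and were named after their values were seen, to account for a list's calls. Of the 32285 gene identifiers, positions came from GENCODE M21. The division by Stab2, Marco and Piezo2 and the 6-against-2-month comparisons of mPRAT and iBAT were added after values were seen.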

Additional observations from a re-analysis of the deposited data

Results flagged for a closer look

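Between 2 and 6 months the share of lymphatic endothelial nuclei moved in opposite directions in different depots, each with an interval that left out 0. It was 0.326 points higher at 6 months in mPRAT (39 of 11412 against 1 of 6156, interval 0.202 to 0.452) and 0.0645 points higher in iBAT (17 of 21115 against 2 of 12497, 0.0109 to 0.115). In lPRAT it was lower (difference -0.122, 0 of 5966 against 4 of 3279). After thinning to 1000 UMIs, the mPRAT interval still left out 0 (0.0262 to 0.212), while those of iBAT (-0.0160 to 0.0854) and lPRAT (-0.402 to 0.0308) included it. Without members holding Stab2 or Marco the mPRAT difference was 0.141 (0.0433 to 0.234), and counted by the lymphatic profile with equal-size class profiles it was 0.924 (0.697 to 1.15). The difference between depots was not tested, and each value compares 1 library with 1 other.

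Outside the nuclei that were analysed, 5 nuclei over the mitochondrial limit met the member rule, 2 of them from 6-month mPRAT, 2 from 2-month lPRAT and 1 from cold iBAT. A further 119 kept nuclei outside the rule were placed with the lymphatic profile by their other genes: 71 in iWAT at 6 months, 20 in mPRAT at 6 months, 14 in cold iWAT and 14 in the remaining libraries. Of these 119, 52 held at least 1 UMI of a rule gene.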

How the results depend on the processing

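The 11 share differences were recomputed 121 times: 90 values stayed within the interval of the value reported and 31 did not. Of 15 values that changed sign, 2 had intervals that left out 0. Counted by the lymphatic profile alone, an alternative chosen after seeing the data, mPRAT minus iWAT was -0.497 points, and the cold iWAT difference was -0.595. With equal-size profiles these were -0.254 and -0.290, cold mPRAT -0.690, age 0.0293 (mPRAT, 6 minus 1 month), 0.924 (mPRAT, 6 minus 2) and -0.465 (lPRAT), mPRAT minus iBAT 0.997 and lPRAT minus mPRAT -1.003. Thinned to 1000 UMIs, the differences were 0.0695 points for mPRAT at 6 minus 1 month, 0.0741 for mPRAT minus iBAT, 0.124 for mPRAT minus iWAT -0.124 for lPRAT minus mPRAT and 0.124 for mPRAT at 6 minus 2 months, and 48 members were left of 109. Without members holding Stab2 or Marco, also chosen after seeing the data, these 5 were 0.121, 0.0772 (interval -0.00318 to 0.175), 0.121, -0.158 and 0.141. Over endothelial nuclei only, a different scale, the cold differences were -3.08 (mPRAT), -0.902 (iBAT) and -1.61 points (iWAT), those of age 10.1 (mPRAT), 3.12 (iBAT) and -22.2 (lPRAT), with 10.5 (mPRAT) and 3.85 (iBAT) for 6 minus 2 months, and those of depot 6.96, 8.93 and -11.1; there iBAT changed sign for cold (interval -3.71 to 1.74) and for 6 minus 1 month (1.18 to 5.62). With no mitochondrial limit the cold mPRAT difference was -0.262 points, and its interval left out 0.

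Against blood endothelial nuclei, no filter on low counts gave 305 genes higher and 581 lower of 19964 tested, with the median log2 fold change of all genes at -0.65 in place of -0.21. Libraries with at least 3 members, added after seeing the data, gave 127 higher. Leaving out 1 library in turn gave 144 to 205 higher and 251 to 388 lower. Without the library as replicate block, 200 were higher and 338 lower. DESeq2 gave 206 and 314. Of the 67 named or listed genes with a call, 54 kept it in every alternative that could fit them, 13 lost it in at least 1, and 0 changed direction. With class profiles of equal size, 92.7% of members were placed as lymphatic. Folds within members between libraries, and a fit of libraries with at least 20 members, were not run because only 1 library had that many. Paired by depot, the shares gave two-sided exact permutation p of 0.75 for 6 minus 2 months (3 pairs, mean 0.0893 points, smallest p 0.25) and 1 for 6 minus 1 month (2 pairs, mean 0.139, smallest p 0.5). For cold it was 0.75, 0.25 after thinning (mean 0.0423, higher in 3 of 3 depots) and 0.5 by profile alone. A fit of cold or age across genes within members, blocked by depot, was not run. Depth limits the low genes: Pdpn, with 19 member UMIs, could not be tested.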

Other observations

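Few members carried transcripts of dividing cells. Of 109 members, 0 held a UMI of Mki67 or Hmmr, 1 of Top2a, 1 of Cenpf and 3 of Cenpe. By a limit of 3 counts, 0 of 109 allows up to 2.75% of members with a UMI. This holds at this depth (median 1758 UMIs) and does not limit the share that express the gene. Among immediate early and stress genes, 4 of 12 were tested. Klf2, a transcription factor induced by flow, was lower than in blood endothelial nuclei (log2 -2.17 ± 0.63, edgeR adjusted p = 0.020) and kept its call in 6 of 11 alternatives. It lost it without mPRAT at 6 months (0.18), iBAT at 1 month (0.090) or iBAT at 6 months (0.052), without the library block (0.082) and by DESeq2 (0.070). Klf4, Fkbp5 and Hsp90aa1 did not pass, although Fkbp5 was called higher in 3 of 12 alternatives, among them that without cold mPRAT (0.020), and Klf4 lower in 1 (0.029).

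Rgs5, a pericyte gene, was at log2 -1.51 ± 0.71 against blood endothelial nuclei and did not pass (edgeR adjusted p = 0.21). With profile-placed members only, it was at -5.15 (edgeR adjusted p = 3.87e-05). That setting left out 14 members, 3 of them placed as mural, and left the blood endothelial nuclei unfiltered. It thus favoured a fall of a mural gene and is no separate support for 1. Rgs5 was also called lower without cold mPRAT (0.036), without iBAT at 1 month (0.033) and with no filter on low counts (0.039). In iBAT at 1 month 2 of 10 members were placed as mural, and mural markers stood at 943 CPM (UMIs per 1000000 UMIs) over that library's members, against 0 in iBAT at 6 months.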
